A study of Mus musculus with 9 samples.

Results

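The CC chemokines examined here were the 10 transcripts Ccl2, Ccl3, Ccl4, Ccl5, Ccl6, Ccl7, Ccl8, Ccl9, Ccl20 and Ccl25, found by gene symbol from a list of names that was drawn up with earlier results of these data known, out of 21498 gene symbols in the data. All 10 had values and passed the filter on low expression described below. CC chemokines are small secreted proteins with a pair of adjacent cysteines near the amino terminus. They bind G protein-coupled receptors of the Ccr family on leukocytes and direct these cells along a concentration gradient. In the inflamed colon, macrophages, neutrophils, stromal cells and epithelial cells release them, and the ligands of Ccr1 and Ccr2 are known for drawing monocytes, neutrophils and T cells into the tissue, whereas Ccl20 and Ccl25 attract Ccr6+ and Ccr9+ lymphocytes to the gut mucosa.

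Colon RNA from 9 male mice of the outbred ICR strain, 5 weeks old at the start of the experiment, was sequenced in 3 groups of 3. Control mice received neither carcinogen nor antibody and gave normal colorectal mucosa. The mice of the AOM/DSS + IgG Ab group (IgG Ab below) and of the AOM/DSS + anti-S100a9 Ab group (anti-S100a9 Ab below) were given a single injection of 10 mg/kg azoxymethane (AOM), a colon carcinogen, then 3 cycles of dextran sulfate sodium (DSS), which injures the epithelium, in drinking water (2% for 7 days, 1.5% for 5 days and 1.5% for 5 days). During the DSS cycles they also received 1.5 mg/kg of control IgG Ab or of a rabbit polyclonal antibody that neutralizes S100a9, a protein of the calprotectin complex, every 2 days, and all mice were killed by the end of week 18. Both AOM/DSS groups are labelled as colorectal adenocarcinoma, although the study's text speaks of mucosa for the anti-S100a9 Ab samples. No group received AOM/DSS without an antibody. The comparisons ask which CC chemokines differ in AOM/DSS colon and whether their levels differ when S100a9 is blocked.

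Values were read as FPKM, fragments scaled by transcript length and by the depth of the sample, although no unit was named. They sum to between 308377 and 408811 per sample. The number of fragments behind a value is unknown, so no counting error is given, and a 0 means only that the gene was listed at 0. Gapdh, Ppia and Rps18, which nearly every cell uses, reached at most 0.755, 0.974 and 0.391 FPKM in any sample, so a low value here need not mean low expression, and the order of levels between genes holds only for the values as deposited. S100a9 itself was listed at 0.370 to 0.859 FPKM in Control, 63.1 to 267 in IgG Ab and 5.54 to 11.6 in anti-S100a9 Ab. The summed FPKM of 8 colon epithelium markers was 3247 to 4218 in Control, 1694 to 3410 in IgG Ab and 2595 to 3550 in anti-S100a9 Ab, so the label of colon tissue fits all 9 samples. Other tissues differed too. Of 6 squamous epithelium markers tested, 4 rose in IgG Ab against Control and 5 fell in anti-S100a9 Ab against IgG Ab, and 4 of 5 adipocyte markers fell in IgG Ab against Control. Their part in the chemokine values was not tested. The samples are bulk tissue, in which more cells of a type and more RNA per cell cannot be told apart.

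Of the 10 genes, 8 lie on chromosome 11 between positions 82035571 and 83664683 (GRCm38, GENCODE M21). Ccl2 and Ccl7, ligands of Ccr2 among other receptors, stand together with Ccl8 at the start of this stretch. Ccl5, Ccl9, Ccl6, Ccl3 and Ccl4 follow in that order at its end. Ccl20 lies on chromosome 1 (83116766 to 83119167, plus strand) and Ccl25 on chromosome 8 (4325210 to 4360020, plus strand). RefSeq promoters (GRCm38.p6) matched 6 of the 10 genes, namely Ccl3, Ccl6, Ccl8, Ccl9, Ccl20 and Ccl25, the last with 2 start sites. The 250 bases before the start site of Ccl6 and Ccl9 are shown because these are neighbouring genes for ligands of the same receptor, and capitals mark every run of at least 12 letters that both windows hold. Each is written 5′ to 3′ on the gene's strand, which is minus for both.
Ccl6 (chr11:83593088-83593337): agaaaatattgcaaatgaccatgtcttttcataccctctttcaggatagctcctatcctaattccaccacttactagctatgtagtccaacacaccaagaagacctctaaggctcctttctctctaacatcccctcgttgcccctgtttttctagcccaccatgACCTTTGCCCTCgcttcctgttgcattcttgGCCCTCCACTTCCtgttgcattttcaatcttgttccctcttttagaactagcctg
Ccl9 (chr11:83578637-83578886): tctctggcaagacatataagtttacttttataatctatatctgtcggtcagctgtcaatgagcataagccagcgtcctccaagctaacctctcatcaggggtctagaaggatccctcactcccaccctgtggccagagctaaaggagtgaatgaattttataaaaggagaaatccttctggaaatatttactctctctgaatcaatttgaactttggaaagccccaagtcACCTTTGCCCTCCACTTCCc
Ccl9 held a single run of 19 letters, from position -20 to -2 counted from the start site, and Ccl6 held its first 12 letters at -86 to -75 and its last 13 at -55 to -43. The Ccl20 window is shown, on the plus strand, for its match to the kappaB consensus, the site bound by NF-kappaB factors, in capitals at positions -80 to -71.
Ccl20 (chr1:83116516-83116765): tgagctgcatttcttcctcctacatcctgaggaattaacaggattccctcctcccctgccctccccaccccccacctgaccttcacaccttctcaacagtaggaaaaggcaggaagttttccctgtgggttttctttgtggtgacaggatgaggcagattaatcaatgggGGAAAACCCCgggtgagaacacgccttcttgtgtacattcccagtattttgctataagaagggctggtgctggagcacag
Ccl9 and Ccl20 held a kappaB match among the 6 matched genes, against 7.25% of 32851 promoters with windows of the same length (both strands searched). Ccl9 also held the AP-1 letters TGANTCA at -53 to -47, found on either strand in 6.75% of promoters. TATAAA on the gene's strand stood at -32 to -27 in Ccl8, -92 to -87 in Ccl9 and -16 to -11 before the second start site of Ccl25, against 7.59% of promoters. Ccl3 and Ccl6 held none of these letters in the window. A match is a description of letters only.

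Ccl3 and Ccl4, which encode the macrophage inflammatory proteins 1 alpha and 1 beta and attract monocytes and T cells, were the members that rose in IgG Ab colon. Ccl3 (chromosome 11, 83647844 to 83649355, minus strand) was 0.615, 0.292 and 0.143 FPKM in Control replicates 1 to 3, 1.81, 1.33 and 8.67 in IgG Ab, and 1.92, 2.07 and 1.01 in anti-S100a9 Ab. Every AOM/DSS sample, with either antibody, lay above all 3 Control samples, and IgG Ab replicate 3 stood far above the rest. On the log2(FPKM + 0.1) scale, Ccl3 was higher by 2.82 ± 0.68 (SE, n = 3 against 3) in IgG Ab than in Control, or 7.06-fold (95% confidence interval 2.41 to 20.7; limma, Benjamini-Hochberg adjusted p = 0.0333). In anti-S100a9 Ab it was 4.16-fold Control (interval 1.42 to 12.2), with no overlap between the samples, but missed the threshold after adjustment (limma, unadjusted p = 0.0151, adjusted p = 0.301). The difference between the antibodies was -0.76 (interval -2.31 to 0.79; limma, adjusted p = 0.426), and the samples overlapped.

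Ccl4 (chromosome 11, 83662584 to 83664683, plus strand) was listed at 0.589, 0 and 0.580 FPKM in Control, 3.14, 1.50 and 5.64 in IgG Ab, and 0.676, 1.00 and 0.736 in anti-S100a9 Ab. The 3 groups did not overlap, with Control lowest and IgG Ab highest. It was higher by 3.10 ± 0.75 (SE) on the log2 scale in IgG Ab than in Control, or 8.58-fold (interval 2.64 to 28.0; limma, adjusted p = 0.0331). This size depends on the pseudocount of 0.1, since Control replicate 2 is listed at 0, and ran from 1.59 with a pseudocount of 1 to 4.30 with 0.01. Against IgG Ab, the anti-S100a9 Ab samples had 3.46-fold less Ccl4 (log2 difference -1.79, interval -3.49 to -0.09), which had an unadjusted p of 0.0414 and an adjusted p of 0.114 by limma. Of 18 alternative fits, 3 called Ccl4 lower and 15 did not, with limma adjusted p-values from 0.037 to 0.34. Among the 3 were a pseudocount of 1 (limma, adjusted p = 0.038) and a fit of these 2 groups alone (limma, adjusted p = 0.044). In anti-S100a9 Ab against Control the difference was 1.31 (interval -0.39 to 3.01; limma, adjusted p = 0.392). Whether the antibody was associated with a larger difference in Ccl4 than in Ccl3 was not tested.

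Of the 10 chemokines, 2 (Ccl3 and Ccl4) thus rose in IgG Ab against Control at an adjusted p under 0.05, and none fell, where 8.18% of the 15278 genes tested rose and 3.01% fell. Both calls sat close to the threshold. Neither gene passed when Control replicate 1 or 2, IgG Ab replicate 1 or 3, or anti-S100a9 Ab replicate 1 or 2 was left out. Over the 9 samples left out in turn, the log2 difference stayed between 2.02 and 3.32 for Ccl3 and between 2.18 and 3.58 for Ccl4, and the adjusted p by limma ran from 0.020 to 0.099 and from 0.024 to 0.087. Of 9 neutrophil markers tested, 5 rose in IgG Ab against Control (Csf3r, Cxcr2, Retnlg, Mmp8 and Trem1) and 4 fell in anti-S100a9 Ab against IgG Ab (the same names without Csf3r). Cxcr2, the receptor by which neutrophils respond to CXC chemokines, was 0.0275 to 0.0831 FPKM in Control, 1.00 to 2.20 in IgG Ab and 0.628 to 0.682 in anti-S100a9 Ab. The sum of all 10 neutrophil markers was 90.3 to 120 FPKM in Control, 36.6 to 189 in IgG Ab and 86.8 to 157 in anti-S100a9 Ab. Ly6g, the most abundant of them, was not called and had its lowest mean in IgG Ab. It was 88.8 to 117 FPKM in Control, 26.1 to 96.0 in IgG Ab and 82.1 to 150.2 in anti-S100a9 Ab. Ngp and Elane were listed at 0 in all Control samples. Ngp was not called, and Elane, at 0 in 2 samples of each AOM/DSS group as well, did not pass the filter. None of 12 monocyte and macrophage markers was called in any comparison by limma (0, 1 and 1 at an unadjusted p under 0.05 for IgG Ab against Control, between the antibodies, and for anti-S100a9 Ab against Control), and their sum was 766 to 1663 FPKM in Control, 739 to 1323 in IgG Ab and 1162 to 1440 in anti-S100a9 Ab. Among all genes tested, 29.5%, 39.1% and 16.0% had an unadjusted p under 0.05 by limma in the same order of comparisons. The part of any cell type in the Ccl3 and Ccl4 values was not tested.

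**Figure D1:**
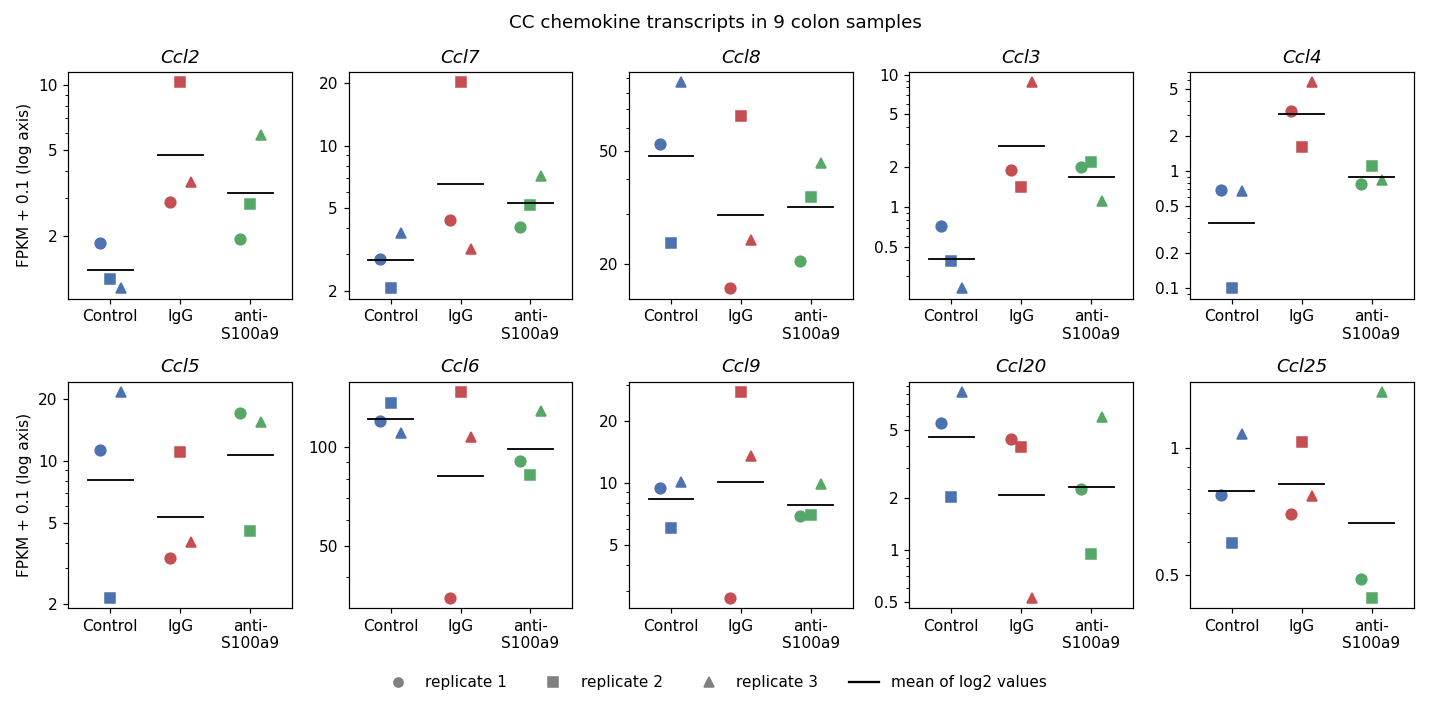
FPKM + 0.1 (vertical log axis) of each CC chemokine in the 9 colon samples, with groups on the horizontal axis, symbols for replicates 1 to 3 and bars for the mean of log2 values. Ccl4 separates the 3 groups (highest in IgG Ab, 1.50 to 5.64 FPKM), Ccl2 and Ccl3 lie lowest in Control, and Ccl5 and Ccl20 spread widely inside every group.

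Ccl5 (chromosome 11, 83525778 to 83530518, minus strand), known as RANTES and made by activated T cells and other leukocytes, shares the receptor Ccr1 with Ccl3 but did not follow it. It was 11.2, 2.04 and 21.7 FPKM in Control, 3.26, 11.0 and 3.92 in IgG Ab, and 17.1, 4.46 and 15.4 in anti-S100a9 Ab. Each group held both low and high samples, a range of 10.6-fold within Control alone. No comparison was called by limma, with log2 differences of -0.61 (interval -2.58 to 1.37; adjusted p = 0.678) in IgG Ab against Control, 1.01 (-0.97 to 2.98; adjusted p = 0.411) between the antibodies and 0.40 (-1.58 to 2.38; adjusted p = 0.836) in anti-S100a9 Ab against Control.

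The sample-to-sample pattern of Ccl5 was closest to that of Ccr7, the receptor that brings lymphocytes and dendritic cells into lymphoid tissue, among 13064 candidate genes. Relative to each gene's own mean, the log2 values of Ccl5 and Ccr7 differed by 0.0989 on average over the 9 samples. Ccr7 was 6.62, 1.18 and 11.1 FPKM in Control, 1.67, 7.25 and 2.32 in IgG Ab, and 8.98, 2.34 and 8.58 in anti-S100a9 Ab, so the same 4 samples were low for both genes. The summed B cell and T cell markers were lowest in them too, though not every single T cell marker was. Cd3g was 10.1 FPKM in IgG Ab replicate 1, above all samples but Control replicate 3. Cd4 was 14.3 FPKM in anti-S100a9 Ab replicate 2, above every Control and IgG Ab sample. The sum of 5 B cell markers was 131, 26.4 and 246 FPKM in Control, 7.98, 111 and 12.9 in IgG Ab, and 186, 50.6 and 204 in anti-S100a9 Ab. The sum of 8 T cell markers was 54.0, 11.8 and 79.5 FPKM in Control, 28.3, 44.7 and 11.9 in IgG Ab, and 61.5, 34.1 and 64.0 in anti-S100a9 Ab. The sum of 6 dendritic cell markers was lowest in the same 4 samples as well, so this was not particular to B and T cells. By contrast, the sum of 6 NK and cytotoxic markers was highest of all samples in IgG Ab replicate 1 (26.1 FPKM), where Ccl5 was low. How much lymphoid tissue each sample held was not measured, and its part in the Ccl5 values was not tested.

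**Figure D2:**
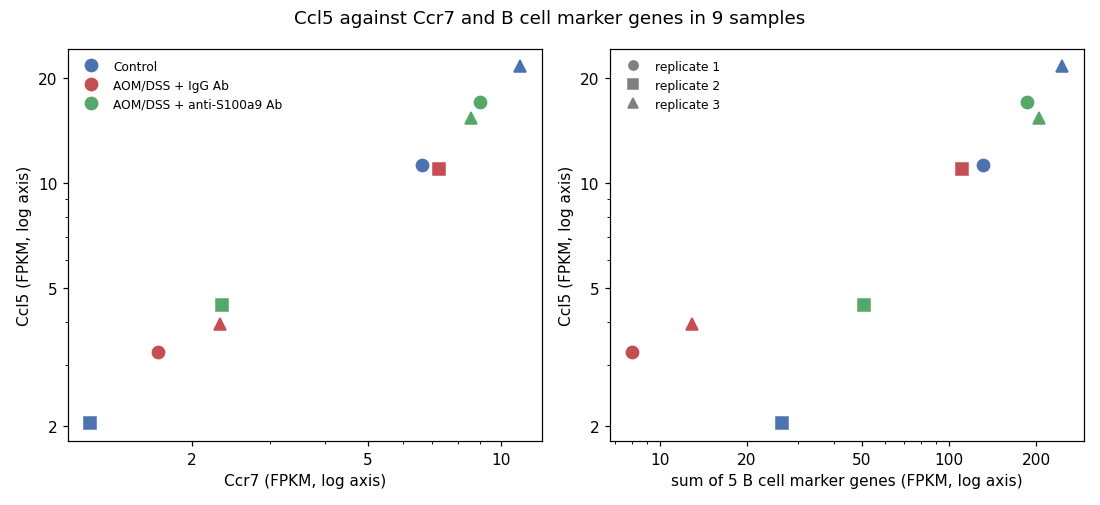
Ccl5 (vertical log axis, FPKM) against Ccr7 (left, FPKM) and the summed FPKM of 5 B cell markers (right), on log axes, with 1 point per sample coloured by group and shaped by replicate. The 4 samples with Ccl5 of at most 4.46 FPKM are also the 4 lowest for Ccr7 and for the B cell sum, and they come from all 3 groups.

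Ccl2, Ccl7 and Ccl8, the monocyte chemoattractant proteins 1, 3 and 2, include the main ligands by which Ccr2+ monocytes leave the bone marrow and enter inflamed tissue. Ccl2 (chromosome 11, 82035571 to 82037453, plus strand) was 1.75, 1.16 and 1.05 FPKM in Control, 2.76, 10.2 and 3.46 in IgG Ab, and 1.83, 2.71 and 5.78 in anti-S100a9 Ab. All 6 AOM/DSS samples were above all 3 Control samples, while the antibody groups overlapped. Ccl2 was 3.39-fold Control in IgG Ab (interval 1.45 to 7.94), with an unadjusted p of 0.0101 and an adjusted p of 0.0686 by limma, short of the threshold. In anti-S100a9 Ab it was 2.28-fold Control (interval 0.976 to 5.34; limma, adjusted p = 0.319), and between the antibodies the log2 difference was -0.57 (interval -1.80 to 0.66; limma, adjusted p = 0.453).

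Ccl7 (chromosome 11, 82045712 to 82047525, plus strand) was 2.73, 1.95 and 3.71 FPKM in Control, 4.29, 20.2 and 3.07 in IgG Ab, and 3.95, 5.09 and 7.03 in anti-S100a9 Ab. IgG Ab replicate 2, the highest sample for Ccl2, was also the highest for Ccl7, and replicate 3 of the same group fell inside the Control range. The log2 difference was 1.22 (interval -0.18 to 2.63; limma, adjusted p = 0.222) in IgG Ab against Control. The anti-S100a9 Ab samples, by contrast, did not overlap with Control (log2 difference 0.92, interval -0.48 to 2.32; limma, adjusted p = 0.463), and against IgG Ab the difference was -0.30 (interval -1.71 to 1.10; limma, adjusted p = 0.740).

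Ccl8 (chromosome 11, 82115185 to 82116799, plus strand) was expressed at far higher levels per length than its neighbours. It was 52.8, 23.7 and 87.1 FPKM in Control, 16.4, 66.0 and 24.2 in IgG Ab, and 20.5, 34.4 and 45.2 in anti-S100a9 Ab. The 3 groups overlapped throughout, and the highest sample was a Control. The log2 differences were -0.68 (interval -2.03 to 0.67) in IgG Ab against Control, 0.09 (-1.26 to 1.44) between the antibodies and -0.59 (-1.94 to 0.76) in anti-S100a9 Ab against Control, with adjusted p-values of 0.476, 0.921 and 0.626 by limma.

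Ccl6 and Ccl9 are rodent chemokines that signal through Ccr1 and are made by macrophages and other myeloid cells. Ccl6 (chromosome 11, 83587882 to 83593087, minus strand) was the most abundant of the 10 transcripts per length in each of the 9 samples and made up 45.3% to 78.4% of their summed FPKM. It was 121, 136 and 111 FPKM in Control, 34.4, 148 and 107 in IgG Ab, and 90.9, 82.1 and 129 in anti-S100a9 Ab. IgG Ab held both the highest and the lowest sample. The log2 difference in IgG Ab against Control was -0.58 (interval -1.63 to 0.47), between the antibodies 0.27 (-0.78 to 1.33), and in anti-S100a9 Ab against Control -0.30 (-1.36 to 0.75), with limma adjusted p-values of 0.437, 0.687 and 0.761.

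Ccl9 (chromosome 11, 83572919 to 83578636, minus strand) was 9.33, 5.97 and 10.0 FPKM in Control, 2.66, 27.6 and 13.5 in IgG Ab, and 6.84, 6.88 and 9.79 in anti-S100a9 Ab. Within IgG Ab, replicate 1 was lowest, replicate 3 between and replicate 2 highest for both Ccl6 and Ccl9, and replicate 3 was highest for both in anti-S100a9 Ab. This was not particular to the pair, since Ccl2, Ccl8 and Ccl25 had the same order in IgG Ab and the same highest anti-S100a9 Ab sample. In Control, where Ccl6 varied little (SD 0.15 on the log2 scale), the orders differed, since replicate 2 was highest for Ccl6 and lowest for Ccl9. No Ccl9 comparison was called by limma, with log2 differences of 0.28 (interval -1.30 to 1.86; adjusted p = 0.819), -0.37 (-1.95 to 1.21; adjusted p = 0.717) and -0.09 (-1.67 to 1.49; adjusted p = 0.957) for IgG Ab against Control, between the antibodies, and for anti-S100a9 Ab against Control.

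Ccl20 and Ccl25 are epithelial ligands of the mucosa. Ccl20, which the follicle-associated epithelium over lymphoid follicles makes and which binds Ccr6, was 5.37, 1.92 and 8.19 FPKM in Control, 4.31, 3.86 and 0.424 in IgG Ab, and 2.16, 0.841 and 5.85 in anti-S100a9 Ab. IgG Ab replicate 3, the highest sample for Ccl3 and Ccl4, was the lowest of all 9 for Ccl20. It had the widest within-group spread of the 10 (pooled SD 1.40 on the log2 scale), and no comparison was called, with log2 differences of -1.11 (interval -3.27 to 1.05), 0.15 (-2.0 to 2.31) and -0.95 (-3.11 to 1.21) and limma adjusted p-values of 0.471, 0.919 and 0.622 for IgG Ab against Control, between the antibodies, and for anti-S100a9 Ab against Control. Gp2, a marker of the M cells in that epithelium, was among the 3 genes nearest to Ccl20 in pattern, with a mean difference of 0.521 on the log2 scale over the 9 samples. Of 6 markers of that epithelium tested, 2 (Anxa5 and Tnfaip2) were called higher in IgG Ab than in Control. Mean Gp2, Spib, Sox8, Tnfrsf11a and Ccl20 were lower there, and none of these was called. The sum of the 6 was 79.1 to 119 FPKM in Control, 106 to 116 in IgG Ab and 89.0 to 123 in anti-S100a9 Ab. Anxa5 had the highest mean of them in each group, so the sum can hide the markers that were lower.

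Ccl25, best known as the small intestinal ligand of Ccr9, was the least abundant of the 10 by mean level in IgG Ab (0.732 ± 0.177 FPKM, SD, n = 3). It was 0.674, 0.494 and 0.979 FPKM in Control, 0.596, 0.933 and 0.669 in IgG Ab, and 0.391, 0.341 and 1.26 in anti-S100a9 Ab. The groups overlapped. The log2 differences of 0.05 (interval -0.97 to 1.07), -0.30 (-1.33 to 0.72) and -0.25 (-1.27 to 0.77) had limma adjusted p-values of 0.953, 0.642 and 0.797, and the sign of the first turned with median-of-ratios scaling (-0.04) and quantile normalization (-0.06).

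**Figure D3:**
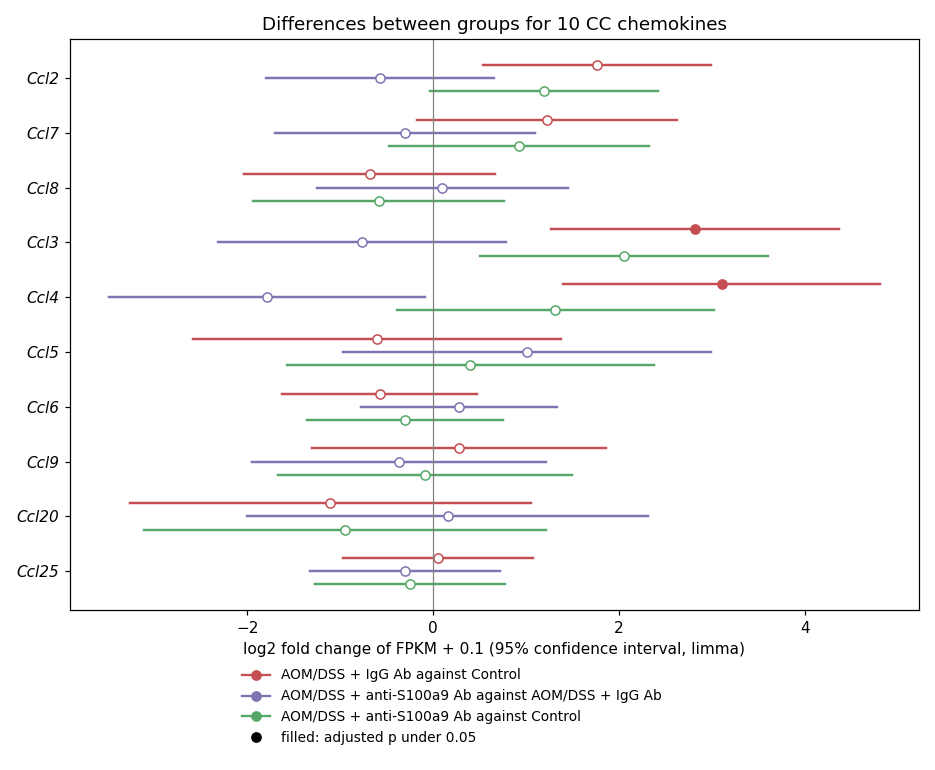
Log2 fold change of FPKM + 0.1 (horizontal axis) for each CC chemokine in the 3 comparisons, with points for the limma estimate and lines for its 95% confidence interval. Filled points (adjusted p under 0.05) are Ccl3 at 2.82 and Ccl4 at 3.10 in IgG Ab against Control, and the Ccl4 interval between the antibodies (-3.49 to -0.09) lies below 0 although its point is open.

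Between anti-S100a9 Ab and IgG Ab, none of the 10 chemokines was called by limma at an adjusted p under 0.05, where 21.1% of all genes tested were, and 1 (Ccl4) had an unadjusted p under 0.05, against 39.1% of all genes. Ccl4 was also the member whose samples did not overlap, lower with anti-S100a9 Ab, as for 28.5% of genes. In anti-S100a9 Ab against Control none was called, where 0.0131% of all genes were, and Ccl3 had an unadjusted p under 0.05, against 16.0% of genes. There, 4 of the 10 (Ccl2, Ccl3, Ccl4 and Ccl7) lay above Control with no overlap, against 17.3% of genes. In IgG Ab against Control it was 3 (Ccl2, Ccl3 and Ccl4), against 20.7%. Both comparisons use the same Control samples. The study's cutoffs (over 2-fold and p under 0.05 before adjustment) were also applied, to the limma values instead of its DESeq test. By these cutoffs, 3 rose in IgG Ab against Control (Ccl2, Ccl3 and Ccl4, where 8.43% of genes rose). Between the antibodies 1 fell (Ccl4, where 8.38% fell), and 1 rose in anti-S100a9 Ab against Control (Ccl3, where 2.28% rose). The median log2 difference of the 10 was 0.17, -0.30 and 0.15 in the 3 comparisons, beside 0.09, -0.06 and 0.04 for all genes tested.

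The samples of a group differed more in these chemokines than in most genes. Differences between mice and measurement error cannot be told apart here, and the genes were not matched for level. The median within-group SD of the 10 was 0.937 on the log2 scale, pooled over groups, beside 0.318 for all 15278 genes, and in IgG Ab it was 1.07 beside 0.338. IgG Ab replicate 2 was the highest of its group for 7 chemokines (Ccl2, Ccl5, Ccl6, Ccl7, Ccl8, Ccl9 and Ccl25) and the lowest for Ccl3 and Ccl4. Replicate 3 of that group showed the opposite for this pair, with the highest Ccl3 and Ccl4. The summed FPKM of the 10 ran from 73.6 in IgG Ab replicate 1 to 291 in replicate 2, which covers the sums of all other samples, and Ccl6 and Ccl8 together gave 69.0% to 92.0% of it.

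**Figure D4:**
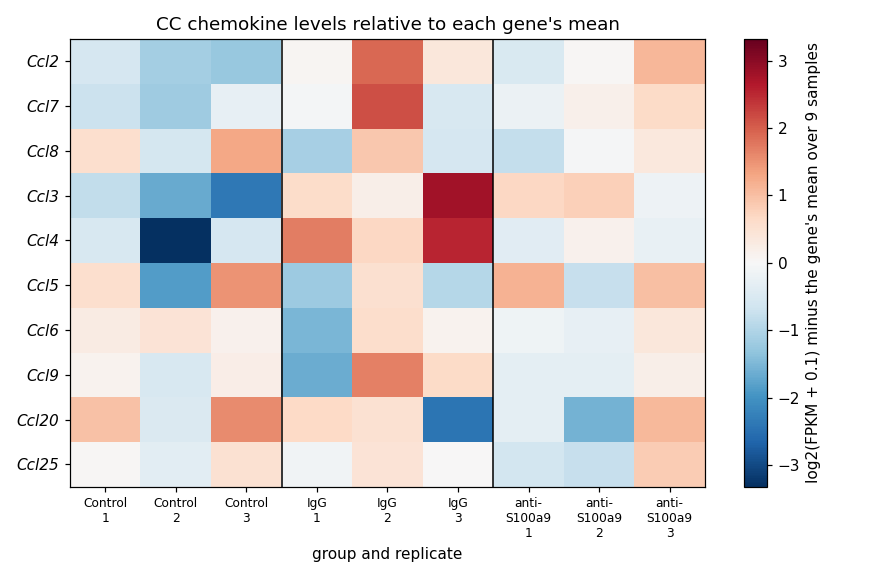
Log2(FPKM + 0.1) of each CC chemokine (rows) in each sample (columns, by group and replicate) minus that gene's mean over the 9 samples, with red above and blue below the mean. IgG Ab replicate 2 is red for most rows, whereas Ccl3 and Ccl4 are reddest in replicate 3, where Ccl20 is blue at 0.424 FPKM.

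The receptors of these ligands were not called in any comparison. Of 11 CC chemokine receptors in the data, 9 passed the filter and none was called by limma, with 1 each at an unadjusted p under 0.05, namely Ccr8 (IgG Ab against Control), Ccr6 (between the antibodies) and Ccr1 (anti-S100a9 Ab against Control), each higher. Among all genes tested, 29.5%, 39.1% and 16.0% had an unadjusted p under 0.05 by limma in these comparisons. Ccr1, which binds Ccl3, Ccl5, Ccl6, Ccl7 and Ccl9, was 5.26, 2.77 and 3.28 FPKM in Control, 3.63, 8.13 and 6.05 in IgG Ab, and 6.61, 5.98 and 7.93 in anti-S100a9 Ab, so the anti-S100a9 Ab samples lay above Control (log2 difference 0.89 ± 0.33, SE; limma, adjusted p = 0.301). Ccr2, the receptor of Ccl2 and Ccl7, was 3.20, 1.57 and 1.56 FPKM in Control, 0.910, 5.55 and 0.990 in IgG Ab, and 3.05, 2.42 and 2.64 in anti-S100a9 Ab. Its highest sample, IgG Ab replicate 2, was the highest for Ccl2 and Ccl7 as well. Ccr6, the receptor of Ccl20, was 4.18, 0.854 and 3.26 FPKM in Control, 0.233, 3.79 and 0.248 in IgG Ab, and 9.02, 2.18 and 8.18 in anti-S100a9 Ab (2.86 ± 1.02 between the antibodies on the log2 scale; limma, adjusted p = 0.0739). Ccr9, the receptor of Ccl25, was 0.208 to 0.556 FPKM in all samples. Of 4 atypical receptors, which take up chemokines without G protein signals, none was called by limma. At an unadjusted p under 0.05 there was 1 (Ackr4) in IgG Ab against Control and 1 (Ackr4) between the antibodies.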

How the data were processed

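The authors deposited 1 table per mouse with a decimal value for 21544 rows named by gene symbol. The deposited values were read as FPKM (corrected for length and depth) from their decimals and sums, since neither the files nor the authors' text names a unit. Per the submitters' processing notes, TopHat, Cufflinks, HTSeq and DESeq were used on GRCm38, with versions and annotation not given in the sources used here. Repeated rows (46) were summed. No whole-read steps were found, so count tests, the study's DESeq test included, were not run.

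log2(FPKM + 0.1) was fitted for the 15278 genes that reached 0.1 FPKM in 3 or more samples, with limma 3.58.1 in R 4.3.3 (all 9 samples, 3 groups, empirical Bayes with an intensity trend, 8.87 degrees of freedom), and p-values were Benjamini-Hochberg adjusted over all genes. A gene was called at an adjusted p under 0.05. Fold changes on this scale understate the change of low genes. The labels call the samples biological replicates. On simulated data, 90% of 200 genes given a log2 difference of 3 were recovered in AOM/DSS + IgG Ab against Control. The 200 were drawn from genes of higher mean level. The 90% therefore does not apply to smaller differences or to genes with a wider spread, as the chemokines had. No files were identical. The 10 members, marker and receptor lists were chosen with earlier results of these data known. All members were named; receptors where called or the main receptor of a member; other CC chemokines where called or at a group mean of at least 10 FPKM; and, by likeness, the nearest 3 genes with a mean of at least 1 FPKM in a group. Ccr7, Ccr8, Ackr4 and the marker genes named with values were picked after their values were seen. Alternatives covered thresholds, block, pseudocount, filter, scaling, trend, groups fitted and each sample left out. Promoters were from RefSeq tables. Python 3.11.15, pandas 2.3.3, numpy 2.4.6 and matplotlib 3.10.9 were used. Values of a receptor and of a marker gene on the lists are not reported here.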

Additional observations from a re-analysis of the deposited data

How the results depend on the processing

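The log2 differences of single chemokines were recomputed under up to 18 alternatives each. Of 537 such values, 496 kept their direction and their side of the threshold, 19 kept the direction but lost a call (Ccl3 or Ccl4 in IgG Ab against Control), 3 gained a call (Ccl4 between the antibodies) and 19 changed sign. The number called in IgG Ab against Control, 2 as reported, was 1 with a pseudocount of 1, 1 with a pseudocount of 0.01, 0 in a fit of the 2 groups alone, and 0 to 2 with 1 sample left out. Between the antibodies it was 1 instead of 0 (Ccl4) with the study's thresholds, a pseudocount of 1 or the 2 groups alone, and 0 to 1 with 1 sample left out (1 without Control replicate 2; limma, adjusted p = 0.037). In anti-S100a9 Ab against Control it was 1 (Ccl3) with the study's thresholds. Fits of 2 groups or with 1 sample left out hold fewer samples, and the cause of the other changes was not tested.

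Replicate numbers 1 to 3 recur in every group. Deviations of same-numbered samples from their group means correlated between -0.187 and 0.154, -0.049 and 0.123, and -0.134 and 0.249 in the 3 comparisons. For differently numbered samples the ranges were -0.256 to 0.148, -0.133 to 0.051, and -0.267 to 0.190. The mean was higher for same-numbered samples each time (0.019 beside -0.011, 0.059 beside -0.030, and 0.076 beside -0.039). Deviations from a mean of 3 samples depend on each other, so these values cannot show whether the numbers pair the samples. With the replicate number as a block, 1 chemokine (Ccl4) instead of 2 was called in IgG Ab against Control (limma, adjusted p = 0.059 for Ccl3), and the other comparisons had 0.

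Signs turned only in differences that no fit called. Ccl25 in IgG Ab against Control was -0.04 with median-of-ratios scaling and -0.06 with quantile normalization, which moved the median of all genes from 0.094 to -0.009 and -0.030. With 1 sample left out, log2 differences spanned 0 in IgG Ab against Control for Ccl5 (-1.56 to 0.11), Ccl6 (-1.01 to 0.05), Ccl9 (-0.45 to 1.22) and Ccl25 (-0.16 to 0.27). Between the antibodies they did so for Ccl3 (-1.27 to 0.04), Ccl6 (-0.35 to 0.70), Ccl7 (-0.83 to 0.51), Ccl8 (-0.33 to 0.67), Ccl9 (-1.31 to 0.35) and Ccl20 (-0.84 to 0.81), and in anti-S100a9 Ab against Control for Ccl5 (-0.56 to 1.11), Ccl9 (-0.32 to 0.05) and Ccl25 (-0.77 to 0.04). The background moved as well: 1710 genes were called in IgG Ab against Control, 627 in a fit of the 2 groups alone and 591 to 2167 with 1 sample left out, and 3219 between the antibodies against 516 to 4114. The unknown depth and 3 mice per group limit every comparison.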

Other observations

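Among the other CC chemokines, 13 were in the data and 9 passed the filter. None was called by limma at an adjusted p under 0.05 in any comparison, and 2, 3 and 0 had an unadjusted p under 0.05 in IgG Ab against Control, between the antibodies, and in anti-S100a9 Ab against Control. The share of all genes tested was 29.5%, 39.1% and 16.0%. Ccl28, an epithelial ligand that attracts antibody-secreting cells through Ccr10, had its lowest values in IgG Ab, where Ccl4 had its highest. It was 43.0, 59.0 and 37.6 FPKM in Control, 2.86, 33.4 and 11.9 in IgG Ab, and 39.1, 60.7 and 44.7 in anti-S100a9 Ab, and IgG Ab overlapped with neither of the other groups. Its log2 difference was -2.11 ± 0.71 (SE) in IgG Ab against Control (limma, adjusted p = 0.0895) and 2.16 ± 0.71 between the antibodies (limma, adjusted p = 0.0596). Ccl21a, a ligand of Ccr7 in lymphoid tissue, was 211, 170 and 439 FPKM in Control, 77.4, 143 and 197 in IgG Ab, and 308, 148 and 317 in anti-S100a9 Ab. Its near-identical copies make how reads were divided among them uncertain. Ccl11, the eosinophil attractant eotaxin, was 7.22 to 9.75, 5.32 to 12.8 and 7.99 to 13.8 FPKM in the 3 groups in the same order.

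The genes nearest in pattern to the other members, by the mean absolute difference of log2 values relative to each gene's mean over the 9 samples, were Ddah1 for Ccl2 (0.281), Ifi47, an interferon-inducible GTPase, for Ccl7 (0.248), Pced1b for Ccl8 (0.279), Nr1d1 for Ccl3 (0.479), Krt13, a squamous keratin, for Ccl4 (0.446), Rab15 for Ccl6 (0.132), Spdef for Ccl9 (0.252), BC147527 for Ccl20 (0.505) and Cdc45 for Ccl25 (0.191). Il1a, which encodes interleukin 1 alpha, was the third nearest to Ccl4 (0.466). The distances of Ccl3, Ccl4 and Ccl20 were more than 4 times that between Ccl5 and Ccr7.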
